A study of Homo sapiens with 6 samples.

Results

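The 149 rows described here are the genes of interleukins, chemokines, the colony-stimulating factors CSF2 and CSF3 and the receptors of these factors. They were taken from a table of 19785 genes by their symbols, which begin with IL, CXCL, CCL, CXCR or CCR and a number or with CSF2 or CSF3 and hold no hyphen. The rows stand for 146 symbols, because CSF2RA, IL3RA and IL9R have 2 rows each. RNA sequencing compared SET-2 parental cells with their OTX P/R derivative, with 3 libraries per group, all from untreated cultures in exponential growth. SET-2 grows as megakaryoblasts, carries an activated JAK2 kinase, and is an established line that the labels class as secondary acute myeloid leukemia. OTX was taken to mean birabresib, which blocks BET bromodomain proteins, and P/R to mean persister and resistant cells. Both groups grew in RPMI1640 medium with 20% fetal bovine serum and no drug. There was 1 derivative, so resistance and any other difference between it and its parent cannot be told apart.

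Interleukins, colony-stimulating factors and chemokines are secreted proteins by which blood, immune and tissue cells direct each other's growth, maturation and movement. Interleukin receptors are built from a chain that recognizes 1 ligand and a chain that several receptors share, and most of them signal through JAK kinases and STAT transcription factors. The receptors of the IL1B and IL18 family signal instead through the adaptor MYD88 and IRAK kinases, and chemokine receptors through G proteins. In megakaryocyte and mast cell precursors such receptors act beside the stem cell factor receptor KIT in the control of growth and survival.

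Few of these genes were expressed, and among those that were, receptor chains were most often lower in the OTX P/R cells. A mean of at least 1 over the 6 libraries was reached by 30 of the 149 rows, which is 20.1%, against 54.3% of all rows. A value is the StringTie abundance of a gene, normalized so that each library has the same set of values. The sequencing depth is therefore unknown. These 30 rows, from 28 genes, were tested with limma on log2(value + 1), and a row was called at a Benjamini-Hochberg adjusted p under 0.05 over the 10741 genes tested. Of the 30 rows 16 fell, 5 rose and 9 were not called. Counted once per gene, 15 fell and 4 rose. Among all tested genes 17.5% fell and 18.6% rose, 36.1% in all. The median log2 fold change was -0.29 for the 30 rows and 0.02 for all tested genes. The groups did not overlap in 23 of the 30 rows, 18 with OTX P/R lower and 5 with OTX P/R higher. Among all tested genes 51.6% did not overlap, 24.9% lower and 26.8% higher. Of the 30 rows 14 were called with a change of 1.5-fold or more on the log2(value + 1) scale, against 14.6% of all tested genes.

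The roles differed in how many members reached the tested range. It held 21 of 44 rows of receptor chains, 4 of 42 ligands, 1 of 40 chemokines, 2 of 16 chemokine receptors and 1 of 4 soluble antagonists. IL4I1, which encodes an amino acid oxidase and is no interleukin, also reached it. Among the tested receptor chains 12 rows fell, 5 rose and 4 were not called. All 5 rows that rose were receptor chains.

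**Figure D1:**
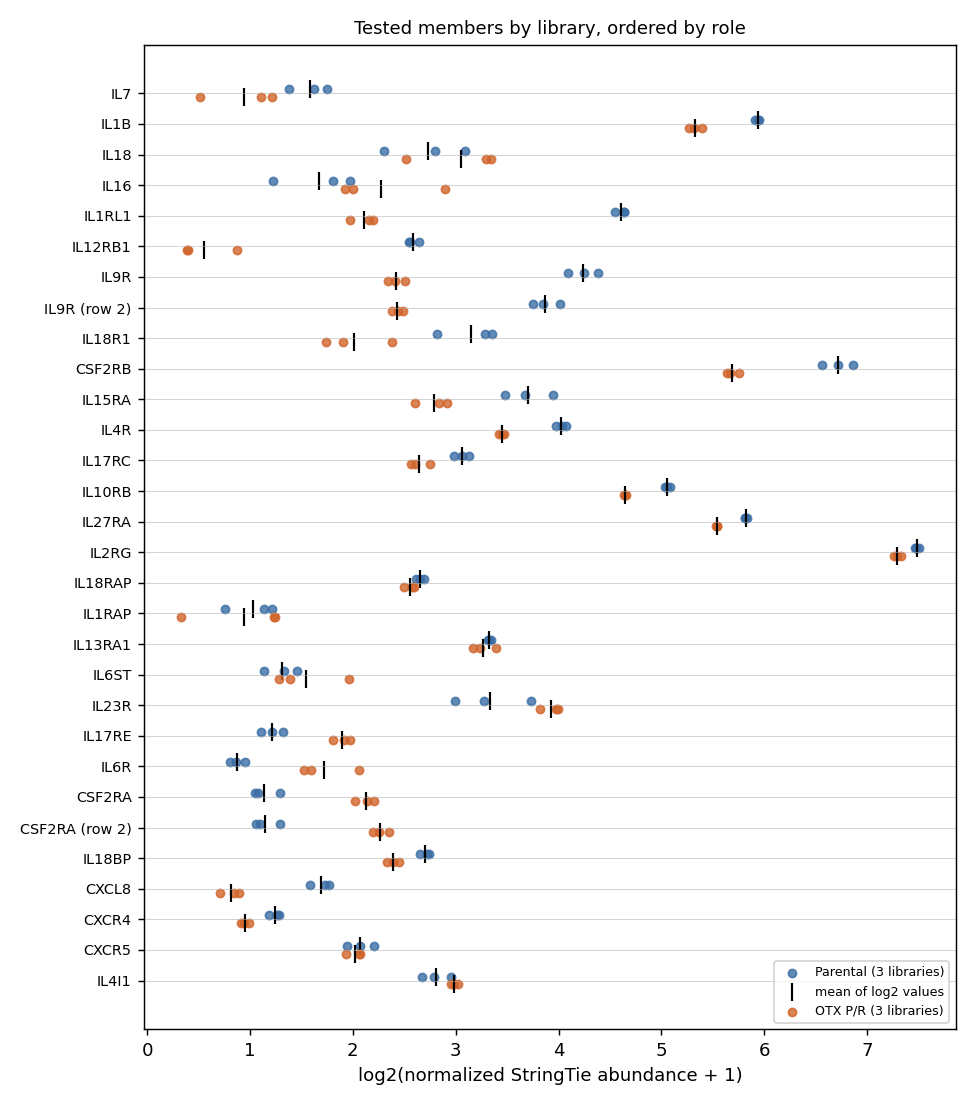
Values of the 30 tested rows in each library, as log2(normalized StringTie abundance + 1), in the order of their roles (ligands, receptor chains, antagonist, chemokine, chemokine receptors, IL4I1). Points are libraries, 3 per group, and ticks are means of the log2 values; IL2RG and CSF2RB lie at the upper end, and the groups do not overlap in 23 rows.

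The libraries and the cell identity were checked on the whole table. The sums of the values ran from 419375 to 419437, equal through the authors' normalization. Of 8 tested megakaryoblast markers 5 rose, 2 fell and 1 was not called, while PF4, a platelet chemokine and marker of this lineage, was listed at 0 in every library. Of 6 monocyte and macrophage markers LYZ was abundant and not called, at 95.7 ± 7.63 and 92.2 ± 10.9, FCGR1A had group means of 1.51 in parental and 0.411 in OTX P/R cells, and CD14, CSF1R, S100A8 and S100A9 had group means of at most 0.132. S100A8 was listed at 0 in every library, and the sum of the list ran from 88.3 to 102.1 and from 81.2 to 103.5. Of 6 T and NK cell markers in the table, the 3 tested (NKG7, CD3D and GZMB) fell, and none was at 0 in all libraries. The summed level of this list ran from 69.4 to 78.2 in the parental libraries and from 29.5 to 31.8 in the OTX P/R libraries. CD3E and CD3G, which the T cell receptor complex needs, were near 0 in both groups, with group means of at most 0.0254. Of 4 B cell markers the 2 tested, CD79A and CD79B, fell by 0.35 and 0.52 on the log2 scale, MS4A1 was listed at 0 throughout, and the sum of the list ran from 13.8 to 16.1 in parental and from 9.87 to 10.8 in OTX P/R libraries. PECAM1, an adhesion molecule of endothelium and platelets, was the 1 tested gene of 6 stromal and endothelial markers and rose, and the sum of that list ran from 7.38 to 8.65 and from 16.9 to 18.1. The collagen gene COL1A1 and the endothelial cadherin CDH5 were not in the tested range and had group means of 0.0732 and 1.92 and of 0.0022 and 0.245, parental first, with no overlap. COL1A2, VWF and DCN had group means of at most 0.0353, and none of the 6 genes was at 0 in all libraries.

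Receptors of the IL1B and IL18 family held the largest change of the tested members on the log2(value + 1) scale. IL1RL1, the receptor for IL33 and a marker of mast cells, stood at 23.8, 22.4 and 23.9 in the parental libraries and at 2.94, 3.47 and 3.58 in the OTX P/R libraries. The groups were far apart, with a mean 7.02-fold lower in OTX P/R cells (log2 fold change -2.50 ± 0.08 SE, limma adjusted p = 1.13e-05). IL18R1, the chain that binds IL18, stood at 8.76, 6.03 and 9.24 in the parental and at 4.20, 2.34 and 2.74 in the OTX P/R libraries. Replicate 2 was the lowest library of each group, and the groups did not overlap (log2 fold change -1.15 ± 0.21 SE, limma adjusted p = 0.00855). Its partner IL18RAP did not pass, at 5.30 ± 0.160 against 4.88 ± 0.203 (SD, n = 3 per group; log2 fold change -0.10, 95% interval -0.24 to 0.04), although the OTX P/R libraries were all below the parental ones. These genes are neighbours on chromosome 2, in the order IL1R2, IL1R1, IL1RL2, IL1RL1, IL18R1 and IL18RAP. IL1R1, the signalling receptor for IL1B, was near the bottom of the table, at 0.0188 ± 0.0032 in parental and 0.161 ± 0.075 in OTX P/R cells. IL1R2, a decoy receptor, ran from 0.0231 to 0.223 in parental and from 0.122 to 0.852 in OTX P/R libraries. IL1RAP, the shared accessory chain, was not called, and its OTX P/R libraries lay apart from each other at 1.36, 1.37 and 0.259. The ligand IL33 was listed at 0 in all libraries.

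The ligands of this family were among the few that were expressed. IL1B, a pyrogenic cytokine of inflammation, was the most abundant ligand, at 60.9, 60.5 and 59.2 in the parental libraries and 41.0, 38.9 and 37.6 in the OTX P/R libraries. It fell by 0.61 on the log2 scale (SE 0.05, limma adjusted p = 2.76e-04), and the groups were clearly separated. IL18, its relative, varied more among replicates than between groups, at 3.95 to 7.54 in parental and 4.71 to 9.16 in OTX P/R libraries (log2 fold change 0.32, 95% interval -0.40 to 1.03). The interval leaves room for a change in either direction. IL18BP, which captures IL18 in the medium, fell from 5.53 ± 0.208 to 4.25 ± 0.220 (log2 fold change -0.31 ± 0.06 SE). IL16, a ligand of CD4, was spread widely in the OTX P/R libraries, at 6.44, 3.01 and 2.81, and overlapped with 2.49, 1.34 and 2.94 in the parental ones (log2 fold change 0.61, 95% interval -0.17 to 1.38). IL1RN, the antagonist of IL1B, was at 0.248 in parental replicate 1 and at most 0.0312 in the other libraries.

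Chains of the receptors for IL3, IL5 and CSF2 went in opposite directions. CSF2RB, the signalling chain that these receptors share, stood at 115.5, 93.5 and 104.5 in the parental libraries and at 48.9, 49.9 and 52.9 in the OTX P/R libraries. Its mean was 2.07-fold lower in OTX P/R cells (log2 fold change -1.03 ± 0.08 SE, limma adjusted p = 3.11e-04). CSF2RA, the chain that recognizes CSF2, was at much lower levels, 1.06, 1.11 and 1.45 in parental and 3.07, 3.40 and 3.63 in OTX P/R libraries. All OTX P/R libraries lay above the parental ones (log2 fold change 0.99 ± 0.10 SE, limma adjusted p = 6.43e-04). The second row of CSF2RA gave 1.12 ± 0.09 SE. The gene lies in the region that the X and Y chromosomes share, and the authors' counting could split its reads between the 2 rows, as for IL3RA and IL9R. IL3RA, the chain that recognizes IL3, stayed under a mean of 1 in each of its 2 rows, with overlapping groups in both. The higher row was at 0.628 ± 0.043 and 0.643 ± 0.085, and the other at 0.610 ± 0.046 and 0.607 ± 0.038. If the rows split its reads, the whole gene could lie in the tested range, which was not tested. IL5RA was at most 0.651 in any library. The ligands CSF2, IL3 and IL5 were listed at 0 in every library.

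Chains of the receptors built on the common gamma chain fell where they were tested (IL2RG, IL4R, IL9R and IL15RA), each to its own extent. IL2RG, the gamma chain itself, had the highest level of all members, at 180.1, 176.2 and 176.6 in the parental and 159.3, 152.0 and 155.6 in the OTX P/R libraries. The groups did not overlap, and the fall was small (log2 fold change -0.19 ± 0.04 SE, limma adjusted p = 0.0118). IL9R, the chain for IL9, a growth factor of mast cells and T cells, stood at 19.9, 18.0 and 16.1 against 4.297, 4.08 and 4.68 in its first row. That is a mean 4.13-fold lower (log2 fold change -1.82 ± 0.09 SE, limma adjusted p = 5.53e-05). The second row of IL9R fell by 1.44 on the log2 scale. IL15RA, which presents IL15 to neighbouring cells, fell from 12.1 ± 2.14 to 5.92 ± 0.763, and IL4R, the chain for IL4 and IL13, from 15.3 ± 0.519 to 9.91 ± 0.162 (SD, n = 3 per group). IL21R, just under the tested range, overlapped between the groups at 0.663 to 1.02 in parental and 0.863 to 1.203 in OTX P/R libraries. IL7R was at most 0.0051 in any library. Its ligand IL7, which supports lymphoid precursors, had group means of 2.01 ± 0.376 and 0.965 ± 0.475. The groups did not overlap, yet IL7 missed the threshold (log2 fold change -0.64, 95% interval -1.14 to -0.14, limma adjusted p = 0.0556).

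The receptors of IL12, IL23, IL27 and IL6 showed both directions. IL12RB1, the chain that the IL12 and IL23 receptors share, stood at 4.89, 5.24 and 4.84 in the parental and at 0.313, 0.304 and 0.832 in the OTX P/R libraries. Its mean was 10.3-fold lower in OTX P/R cells. The fall was 8.79-fold without OTX P/R replicate 1, 8.72-fold without replicate 2 and 16.2-fold without replicate 3, the highest of the 3. On the log2(value + 1) scale IL12RB1 had a log2 fold change of -2.03 ± 0.15 SE (limma adjusted p = 1.85e-04). IL23R, which pairs with it for IL23, was at 12.3, 6.95 and 8.66 in the parental and at 13.1, 14.9 and 14.7 in the OTX P/R libraries. It rose at the edge of the threshold (log2 fold change 0.60 ± 0.19 SE, limma adjusted p = 0.0497), and the highest parental library was close to the lowest OTX P/R library. The call of IL23R was lost in 10 of 14 alternatives, with adjusted p from 0.00675 to 0.128 over all 14. Leaving out any 1 library other than parental replicate 1 ended it, with adjusted p from 0.0842 to 0.128. IL12RB2, the partner for IL12, had group means of 0.170 and 0.0949. IL27RA fell by 0.28 on the log2 scale, from 55.6 ± 0.353 to 45.5 ± 0.234. IL6R, the chain for IL6, rose from 0.932, 0.822 and 0.750 to 2.01, 3.16 and 1.88, with all OTX P/R libraries above the parental ones (log2 fold change 0.85 ± 0.15 SE, limma adjusted p = 0.00718). IL6ST, the signalling chain shared by receptors of the IL6 family, was not called. OTX P/R replicate 1 was its highest library at 2.90, and the other 5 lay between 1.19 and 1.74. IL6 itself was above 0 in 1 library only, at 0.0355.

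Neighbouring IL17 receptor genes on chromosome 3 changed in opposite directions. IL17RE, a chain for IL17C, rose from 1.15, 1.498 and 1.33 to 2.51, 2.77 and 2.92 (log2 fold change 0.68 ± 0.09 SE, limma adjusted p = 0.00172). IL17RC, a chain for IL17A and IL17F, fell from 7.34, 6.91 and 7.76 to 5.07, 5.73 and 4.92 (log2 fold change -0.42 ± 0.08 SE, limma adjusted p = 0.00744). Neither gene's groups overlapped. IL17RA, the chain that the family shares, was listed at 0 in all libraries, and IL17RB ran from 0.235 to 0.466. IL10RB, a chain shared by receptors of IL10 and IL22, fell from 32.3 ± 0.552 to 23.99 ± 0.153 (log2 fold change -0.42 ± 0.04 SE), while its partner IL10RA was at most 0.0067. IL13RA1, a chain for IL13, was not called (log2 fold change -0.06) and had a 95% interval of -0.24 to 0.11. Its decoy relative IL13RA2 was at 1.14, 1.29 and 1.56 in parental libraries, at 0.0585 in OTX P/R replicate 1 and at 0 in the other two.

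**Figure D2:**
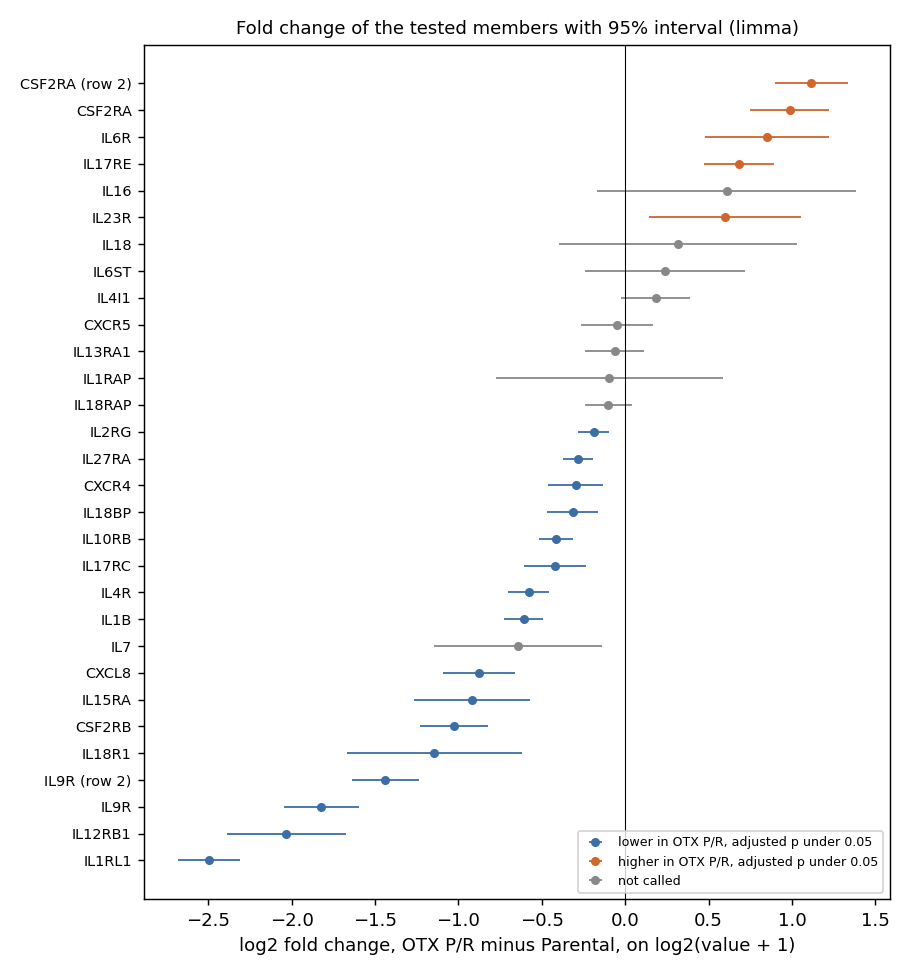
Log2 fold change of each tested row, OTX P/R minus Parental on log2(value + 1), with its 95% interval from limma; colours mark rows called lower, called higher and not called. The 16 lower rows run from -2.50 for IL1RL1 to -0.19 for IL2RG, and the 5 higher ones from 0.60 for IL23R to 1.12 for the second row of CSF2RA.

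CXCL8 was the 1 chemokine in the tested range. This attractant of neutrophils stood at 2.00, 2.41 and 2.31 in the parental and at 0.861, 0.635 and 0.797 in the OTX P/R libraries, a mean 2.93-fold lower in OTX P/R cells (log2 fold change -0.88 ± 0.09 SE, limma adjusted p = 7.08e-04). On the same cluster of chromosome 4, CXCL3 and CXCL2, which act on the same receptor CXCR2, were under a mean of 1 and lay the other way. CXCL3 was at 0.320 to 0.802 in parental and 1.04 to 1.07 in OTX P/R libraries, and CXCL2 at 0.345 to 0.460 and 0.593 to 0.941. A fit without a filter on low values gave limma adjusted p = 0.0478 and 0.0372. Both genes were singled out after their values were seen, so these p-values do not test a contrast with CXCL8. Levels this low also rest on an unknown, small number of reads. CXCL1 and CXCL5 were at most 0.0700. Their receptor CXCR2 was at most 0.0281, and CXCR1, the other receptor for CXCL8, at most 0.415. CXCR4, the receptor that holds blood precursors in the marrow through CXCL12, fell from 1.28, 1.39 and 1.44 to 0.920, 0.881 and 0.984 (log2 fold change -0.30 ± 0.07 SE, limma adjusted p = 0.0173). The CXCR4 call was lost without parental replicate 3, OTX P/R replicate 1 or OTX P/R replicate 2, with adjusted p = 0.0569, 0.0560 and 0.0593. CXCL12 was listed at 0 throughout. CXCR5, the receptor for CXCL13, was not called (log2 fold change -0.05) and had a 95% interval of -0.27 to 0.17.

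Below the tested range lay 119 of the 149 rows, of which 31 were listed at 0 in every library and 67 had a mean above 0 and under 0.3. A fit of all 17367 genes above 0 in any library included 118 of the rows, and called 26 lower and 15 higher. Among all genes of that fit 13.4% were lower and 14.5% higher. The lower share was 22.0% of these rows and the higher share 12.7%, together 34.7% against 27.8% of all genes. The groups did not overlap in 49 of the 118 rows, 33 lower and 16 higher, where 44.6% of all genes did not overlap, 20.8% lower and 23.8% higher. Of the 118 rows 19 were called with a change of 1.5-fold or more, against 9.83% of all genes. Of the 119 low rows, 10 reached a group mean of 1. IL32, a cytokine of T and NK cells, was at 2.34, 1.94 and 1.47 in the parental and at 0.102, 0.0340 and 0.0232 in the OTX P/R libraries, and was called lower (limma adjusted p = 8.74e-04 without the filter). The chemokine CCL5, made by the same cells, was at 1.60, 2.00 and 1.69 against 0.0929, 0.101 and 0.158 (limma adjusted p = 1.87e-04 without the filter). CCR7, which guides lymphocytes to lymph nodes, was at 1.79, 1.28 and 1.45 against 0.214, 0.255 and 0.207. These 3 genes were taken for a group mean of 1 that only the parental cells reached, so a difference between the groups lay in their choice. The summed T and NK cell markers and the summed B cell markers given above were also lower in OTX P/R cells, and their part in these values was not tested. Fewer cells of a type and less RNA per cell cannot be told apart in these bulk libraries.

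IL2RA and IL2RB, the chains that complete the IL2 receptor with IL2RG, were also low. IL2RA had group means of 0.376 and 0.0084 and was called lower, while IL2RB, at 1.62, 1.61 and 0.539 against 0.3002, 0.288 and 0.121, was not (limma adjusted p = 0.0527 without the filter). The fit without the filter held the 88 low rows above 0 in any library. It called 11 of them higher, 10 lower and 67 in neither direction. Among all genes of that fit 14.5% were higher and 13.4% lower. Of the 11 higher rows CCR4, IL34, IL17REL and CXCL3 reached a group mean of 1. Only the OTX P/R cells reached that mean, so a difference between the groups lay in the choice of these genes too. The other 7 higher rows (CXCL2, IL17D, CXCR1, CCL25, IL1R1, CCR3 and IL10) had OTX P/R means of at most 0.747. CCR4, a receptor for CCL17 and CCL22, was at 0.142, 0.202 and 0.234 in parental and 1.35, 1.73 and 1.58 in OTX P/R libraries (limma adjusted p = 3.47e-04 without the filter). IL34, a ligand of the CSF1 receptor, was at 0.216, 0.285 and 0.264 against 1.49, 1.502 and 0.709 (limma adjusted p = 0.0188 without the filter). Values this low rest on few reads, whose number is unknown.

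**Figure D3:**
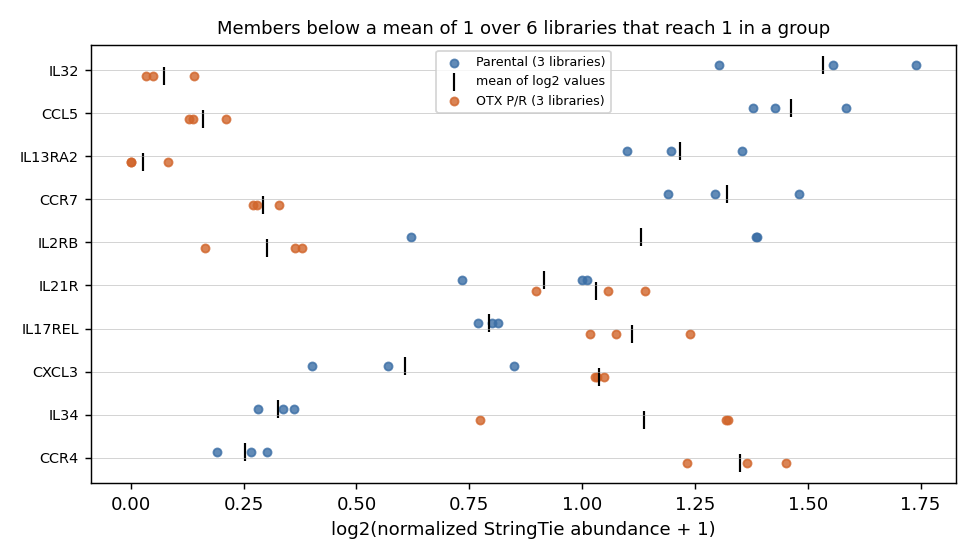
Values in each library of the 10 members with a mean under 1 over the 6 libraries and a mean of at least 1 in a group, as log2(normalized StringTie abundance + 1). Points are libraries, 3 per group, and ticks are means of the log2 values; IL32, CCL5, IL13RA2 and CCR7 lie higher in Parental and CCR4 and IL34 higher in OTX P/R.

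The changes of the members were set beside those of the genes around them. For each of the 28 tested genes, up to 12 tested genes were taken on each side in the RefSeq order. The median log2 fold change of these neighbours lay between -0.16 and 0.06 for the 19 genes that were called. A median over many genes tends to lie near that of all tested genes, 0.02, whatever its single genes do. Whether the changes are particular to the members was not tested. Among all tested genes 36.1% were called, 17.5% lower and 18.6% higher. IL1RL1 had 6 called genes among its 24 neighbours, all lower, with IL18R1 the lowest at -1.15, and a neighbour median of -0.02. IL12RB1 had 7 called neighbours, of which 4 were lower, and a neighbour median of 0.02. Its lowest neighbour was at -2.22, below IL12RB1 itself at -2.03. CSF2RB, on chromosome 22, had 14 called neighbours, 8 of them lower, and a neighbour median of -0.10. Its neighbours ran from -2.42 to 0.98, with CSF2RB itself at -1.03. Some members overlap other genes, IL12RB1 with MAST3, IL6R with IL6R-AS1, IL23R with C1orf141, IL18BP with NUMA1, IL16 with STARD5, IL7 with ZC2HC1A, CXCR5 with BCL9L, IL10RB with a readthrough gene joined to IFNAR2, CSF2RB, IL15RA and CSF2RA each with an uncharacterized locus, and IL4I1 with NUP62 and ATF5. Whether the counting used strand is not given in the sources used here, so reads there may come from either gene.

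**Figure D4:**
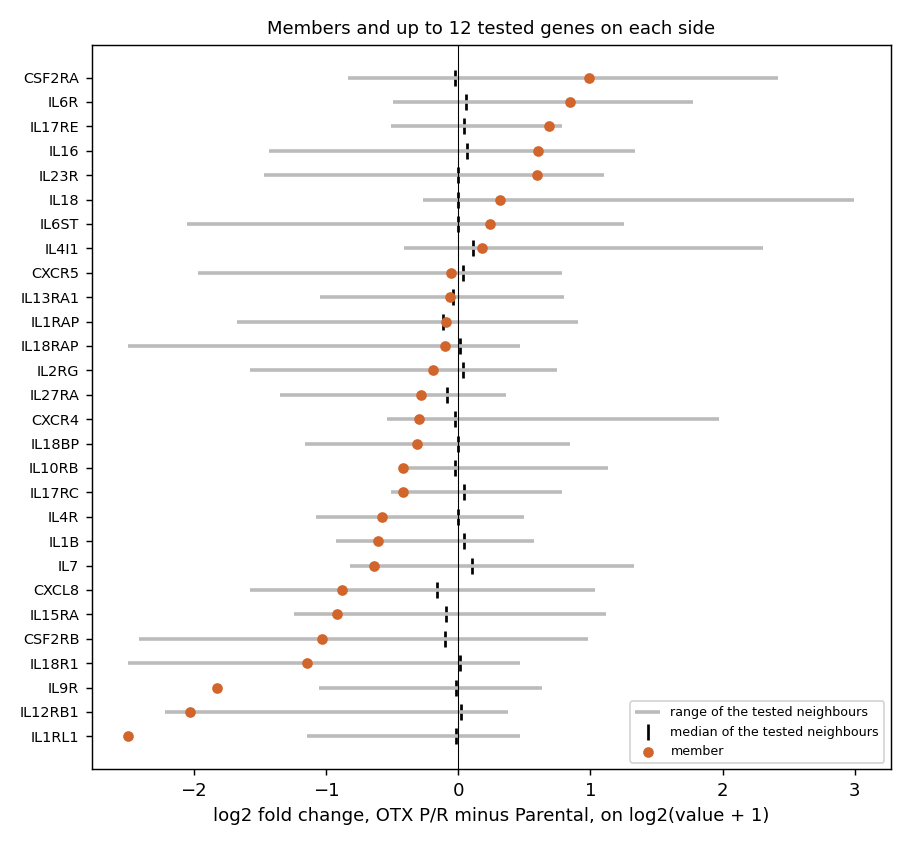
Log2 fold change (OTX P/R minus Parental, on log2(value + 1)) of each tested member, shown as a point, with the median (tick) and the range (bar) of up to 12 tested genes on each side. The medians of the neighbours of called members lie between -0.16 and 0.06, and the members run from -2.50 to 0.99. A median over many genes varies less than a single gene, so these ranges cannot be set against each other. Single neighbours reach -2.42 beside CSF2RB and 2.42 beside CSF2RA.

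Promoter sequences are shown for the tested members with the largest falls, for the 1 tested chemokine, and for IL6R as a member that rose. They are the 250 bases before a RefSeq start on GRCh38.p14, read along the gene's strand, and capitals mark the motifs searched below. RefSeq lists 2 starts for IL1RL1, with windows at chr2:102311313-102311562 (+) and chr2:102337007-102337256 (+). The window of IL12RB1 is chr19:18098928-18099177 (-), that of CXCL8 chr4:73740319-73740568 (+) and that of IL6R chr1:154405093-154405342 (+).
IL1RL1, first start: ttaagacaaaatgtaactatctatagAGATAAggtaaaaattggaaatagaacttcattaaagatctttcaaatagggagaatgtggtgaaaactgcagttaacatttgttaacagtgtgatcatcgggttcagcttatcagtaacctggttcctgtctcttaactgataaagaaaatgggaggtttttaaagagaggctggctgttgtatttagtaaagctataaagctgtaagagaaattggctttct
IL1RL1, second start: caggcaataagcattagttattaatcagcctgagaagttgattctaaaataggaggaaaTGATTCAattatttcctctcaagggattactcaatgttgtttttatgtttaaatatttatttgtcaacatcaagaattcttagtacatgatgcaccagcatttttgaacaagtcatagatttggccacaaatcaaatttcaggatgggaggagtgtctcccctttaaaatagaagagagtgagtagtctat
IL12RB1: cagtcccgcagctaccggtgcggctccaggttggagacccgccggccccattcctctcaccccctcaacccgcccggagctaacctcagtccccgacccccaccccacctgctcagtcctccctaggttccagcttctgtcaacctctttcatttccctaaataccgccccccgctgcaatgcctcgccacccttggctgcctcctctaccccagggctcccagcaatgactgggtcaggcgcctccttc
CXCL8: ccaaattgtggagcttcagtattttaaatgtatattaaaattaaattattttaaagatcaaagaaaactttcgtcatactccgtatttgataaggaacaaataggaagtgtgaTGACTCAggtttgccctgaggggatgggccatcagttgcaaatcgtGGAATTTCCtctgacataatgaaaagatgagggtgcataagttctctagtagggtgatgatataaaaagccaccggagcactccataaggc
IL6R: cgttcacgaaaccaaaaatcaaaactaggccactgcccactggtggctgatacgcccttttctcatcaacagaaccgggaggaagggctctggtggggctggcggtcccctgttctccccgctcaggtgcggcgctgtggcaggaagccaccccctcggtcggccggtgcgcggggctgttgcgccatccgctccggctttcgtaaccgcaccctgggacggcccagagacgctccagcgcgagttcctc

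The motifs were searched on both strands and chosen after the values were known. They were GGNNTTTCC for NF-kB, TGANTCA for AP-1, TTCNNNGAA for STAT factors, AGATAA for GATA factors and, by its usual letters, the interferon-stimulated response element. CXCL8 held GGAATTTCC beginning 91 bases before its start and TGACTCA beginning 137 bases before it, the first window of IL1RL1 held AGATAA, and the second held TGATTCA. No motif was found in the windows of IL12RB1 and IL6R. RefSeq windows were given for 24 of the 28 tested genes. The NF-kB letters were in 6 of the 25 windows of genes that fell (6 of 14 genes), in 2 of 10 windows of genes not called, and in 5.48% of all 35116 windows. The 6 windows belong to CXCL8, CXCR4, IL18BP, IL18R1, IL27RA and IL4R. The 2 windows of genes not called are overlapping ones of IL18RAP that hold the same site. The AP-1 letters were in 7 of the 25 windows (28.0%) and in 6.57% of all windows, but 3 of the 7 are alternative starts of IL15RA and 2 are the X and Y copies of IL9R. The GATA letters were in 5 of the 25 windows, in 2 of the 10 of genes not called and in 9.17% of all. Of the 5 windows 2 are the X and Y copies of IL9R, and the 2 of genes not called are again those of IL18RAP. The STAT letters were in 3 of the 25 windows and in 6.57% of all, and the interferon-stimulated response element in 2 of the 25, in 1 of the 10 and in 3.02% of all. The AP-1 and STAT letters were in none of the 10 windows of genes not called. The genes that rose had 5 windows, 2 of IL17RE, 1 of IL6R and the identical X and Y copies of CSF2RA, and none of the 5 motifs was found in them.

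Genes that carry or limit the signals of these receptors moved in both directions. Of 40 tested signalling genes 9 rose, 10 fell and 21 were not called, with a median log2 fold change of 0.07. The called shares of all tested genes are those given above, 18.6% higher and 17.5% lower. GRK6, a kinase that silences chemokine receptors, and SOCS2, a feedback inhibitor of JAK-STAT signalling, fell by 0.75 each on the log2 scale. STAT3, STAT5A, STAT5B and STAT6, which carry the signals of interleukin receptors to the nucleus, fell by 0.50 to 0.55 on the log2 scale. ARRB2, an arrestin of chemokine receptors, rose from 46.7 ± 3.30 to 88.5 ± 4.65 (log2 fold change 0.91 ± 0.07 SE). RGS16, which shortens G protein signals, and SOCS1, an inhibitor of JAK kinases, rose by log2 fold changes of 0.74 and 0.59. JAK1, JAK2, JAK3, TYK2 and MYD88 were not called.

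Cytokines and receptors with other names gave 10 tested genes, of which 3 rose, 5 fell and 2 were not called. The chemokine-binding receptors CCRL2 and ACKR1, which do not signal through G proteins, rose by log2 fold changes of 1.15 and 0.97. CSF1, the growth factor of macrophages, fell from 45.4 ± 5.75 to 19.4 ± 7.47, and its OTX P/R libraries were spread over 17.2, 27.8 and 13.3. LIF, a ligand that signals through IL6ST, fell from 1.82 ± 0.0595 to 0.443 ± 0.0712, and FLT3LG, a growth factor of early blood cells, fell by 0.52 on the log2 scale. The platelet chemokines PF4, PF4V1 and PPBP were not in the tested range.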

How the data were processed

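RNA of 6 cultures, 3 parental and 3 OTX P/R, was sequenced. The tools that the submitters' processing notes name are Trim Galore, HISAT2 and StringTie, with the build hg19 and no versions. The authors' deposited signal is a linear StringTie abundance per gene. It could be FPKM or TPM, both per transcript length, so levels of genes can be compared. At 1 or above, the libraries' sorted values lay within 0.243% of each other, the mark of quantile normalization. A value therefore carries a gene's rank but no depth, and counting intervals cannot be given.

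Groups followed the sample titles. Rows with a missing value, 6 of 19785, were dropped. The scale log2(value + 1) understates changes of low genes. On it, limma 3.58.1 in R 4.3.3 (two-sided, prior following the mean, Benjamini-Hochberg adjustment) was run on the 10741 genes whose mean was 1 or more. Means and SDs are linear, n = 3 per group. The labels speak of biologic replicates but not of how they were separated, so p-values measure only the spread between these samples, which may be technical. An exact permutation test of 3 against 3 libraries has a smallest two-sided p of 0.1 and was not used. The fit was also run on simulated data, drawn gene by gene with few changed genes and no quantile normalization. That setting differs from these data, so the run cannot give the rate of false calls here. Members and lists were chosen with earlier results of these data known. The rule for named genes takes every called member, allows tested members and those reaching a group mean of 1, and up to 3 called genes per direction of the other lists. Other low members, markers, and the STAT and JAK genes were singled out after their values were seen. Some genes that the rule covers are left out of the text. RefSeq tables on GRCh38.p14 served for gene order, overlaps and promoters; no position on hg19 was used. Alternatives were pseudocounts of 0.1 and 5, other filters, other priors, centring, a replicate block and leaving out each library, and, added after the data were seen, counting once per symbol and the ratio of means without each library. Python 3.11.15, pandas 2.3.3, NumPy 2.4.6 and Matplotlib 3.10.9 were used.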

Additional observations from a re-analysis of the deposited data

How the results depend on the processing

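With no filter on low values 15 members were called higher and 26 lower, because 118 rows were tested, and with a minimum mean of 5 only 1 was higher and 12 lower, because 17 rows were tested. Under the other alternatives that keep all 6 libraries the counts were 4 or 5 higher and 15 to 17 lower. Leaving out 1 library gave 4 to 6 members higher and 15 or 16 lower, and 6 to 9 signalling genes higher and 8 to 10 lower. With the replicate number as a block 4 members rose and 16 fell, and 8 signalling genes rose and 8 fell. Under the block IL7 was called (adjusted p = 0.0279), while CXCR4 (0.0600) and IL23R (0.0971) were not. Same-numbered libraries did not deviate together (correlations -0.065, -0.028 and -0.00029), so the numbers are not taken as pairs. Of 407 fold changes recomputed for the tested members 388 kept their direction and side of the threshold. IL7 also passed with a pseudocount of 5 (adjusted p = 0.0434), and IL4I1 without parental replicate 1 (0.0431). The direction turned for 2 members that were never called: CXCR5 without parental replicate 2 (log2 fold change 0.015, and -0.11 to 0.015 over the libraries left out) and IL1RAP without OTX P/R replicate 3 (0.21, and -0.25 to 0.21). Values near the lower end of the table rest on few reads, and an unknown depth limits what they show.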
